A study of Mus musculus with 5 samples.

Results

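The 8 genes described here, H2-Aa, H2-Ab1, H2-Ea, H2-Eb1, H2-DMa, H2-DMb1, Cd74 and Ciita, encode the chains of MHC class II, its peptide editor, the invariant chain and the factor that switches the class II genes on. They were taken by name, as every probe set annotated to exactly 1 of these symbols, which gave 17 probe sets of 45037 that are not array controls and 7 of the 8 genes, out of 18193 on the array. RNA from whole hearts of 5 female mice had been hybridized to Affymetrix whole-genome mouse expression arrays. There were 3 NZB_W mice, aged 12 to 15 weeks, with lupus nephritis and an injury of the kidney that Austin scoring placed as moderate. They were set against 2 age-matched NZW mice without kidney injury. No mouse was treated, and all hearts were bled and perfused with 0.9% NaCl before collection. NZB_W mice are the F1 cross of the NZB and NZW strains, so genotype and disease differ together between the groups and cannot be told apart. As background, the parental strains carry different H2 haplotypes: an NZB_W mouse has 1 of each, and an NZW mouse has 2 copies of its own. Titles call the arrays biological replicates, and p-values measure the spread between these arrays.

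MHC class II molecules are pairs of an alpha and a beta chain that display peptides from endocytosed protein to CD4 T cells. H2-Aa pairs with H2-Ab1 to form the mouse I-A molecule, and H2-Ea pairs with H2-Eb1 to form I-E. The invariant chain Cd74 fills the peptide groove during transport, cathepsin S (Ctss) trims it to the fragment called CLIP, and the H2-DM dimer of H2-DMa with a beta chain exchanges CLIP for peptide. Transcription of the class II chains, Cd74 and H2-DM depends on Ciita, a coactivator that binds no DNA itself and is recruited by the RFX complex, CREB and NF-Y on the X and Y boxes of class II promoters. In the heart, class II is carried mainly by macrophages and dendritic cells, and interferon gamma can induce it in other cells.

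Promoter windows of 3 of the 8 genes held the same pair of short sequences. RefSeq promoter windows of GRCm38.p6, which run from 250 bases before to 50 bases after a start, were examined for 4 of the 8 genes. Cd74 was not among these 4. A core of the X box (CTNGNAAC) followed on the same strand by a core of the Y box (TGATTGG), with at most 40 bases between them and both strands searched, was found in 3 of these 4: H2-Aa, H2-Eb1 and H2-DMb1. The stretches below show this pair with up to 20 bases on each side, printed 5′ to 3′ along the gene's own strand, with both cores in capitals. H2-Aa is shown from chr17:34287847-34287927 (minus strand), H2-Eb1 from chr17:34305753-34305832 (plus strand) and H2-DMb1 from chr17:34153074-34153154 (plus strand).
H2-Aa: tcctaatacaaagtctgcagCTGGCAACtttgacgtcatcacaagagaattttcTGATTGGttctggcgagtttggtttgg
H2-Eb1: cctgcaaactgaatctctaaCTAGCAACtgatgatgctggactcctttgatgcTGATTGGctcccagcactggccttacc
H2-DMb1: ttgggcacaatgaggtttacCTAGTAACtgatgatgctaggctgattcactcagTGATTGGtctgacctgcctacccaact
The 2 cores did not overlap and lay 26, 25 and 26 bases apart in H2-Aa, H2-Eb1 and H2-DMb1. The X core began 84, 94 and 97 bases before the start in the same order of genes. Of all 32851 promoter windows, 13.2% held the X core, 7.82% held the Y core and 0.0944% held the pair. The letters of both cores come from the textbook boxes and were set with the member promoters in view. Neither of the 2 H2-DMa windows held either core. In the search of all promoter windows, no pair was found for Cd74. The pair was present in windows of 25 other genes, among them H2-Ob and Rfx5, whose product is itself a subunit of the RFX complex. The 13 of these 25 that could be measured above the dim range had log2 differences between -0.49 and 0.12, with a median of 0.0013. A match is a description of letters, not a shown binding site.

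The deposited values are log2 expression levels with nearly equal quartiles on all 5 arrays and array medians of 4.62 to 4.68. The number of arrays limits every precision given here. NZB_W array 3 and NZW array 2 stood apart on the array's control probe sets: the 5′ minus 3′ difference of beta-actin was -1.31 and -1.19 on them, against -0.88 to -0.89 on the other 3, and NZW array 2 read 12.7 on the 5′ probe set for 18S rRNA, where the other 4 read 9.97 to 10.5. The heart label was borne out by 10 of 10 cardiomyocyte markers above the array median on all 5 arrays, with the cardiac myosin Myh6 at 14.1 to 14.3. Differences below are NZB_W minus NZW on the log2 scale, from a limma fit over 22804 probe sets that exceeded the array median on at least 2 arrays. Of the 17 member probe sets, 11 entered this fit, and all 11 exceeded the median on all 5 arrays, so none entered through 1 group alone. The other 6 lay below the median on every array.

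**Figure D1:**
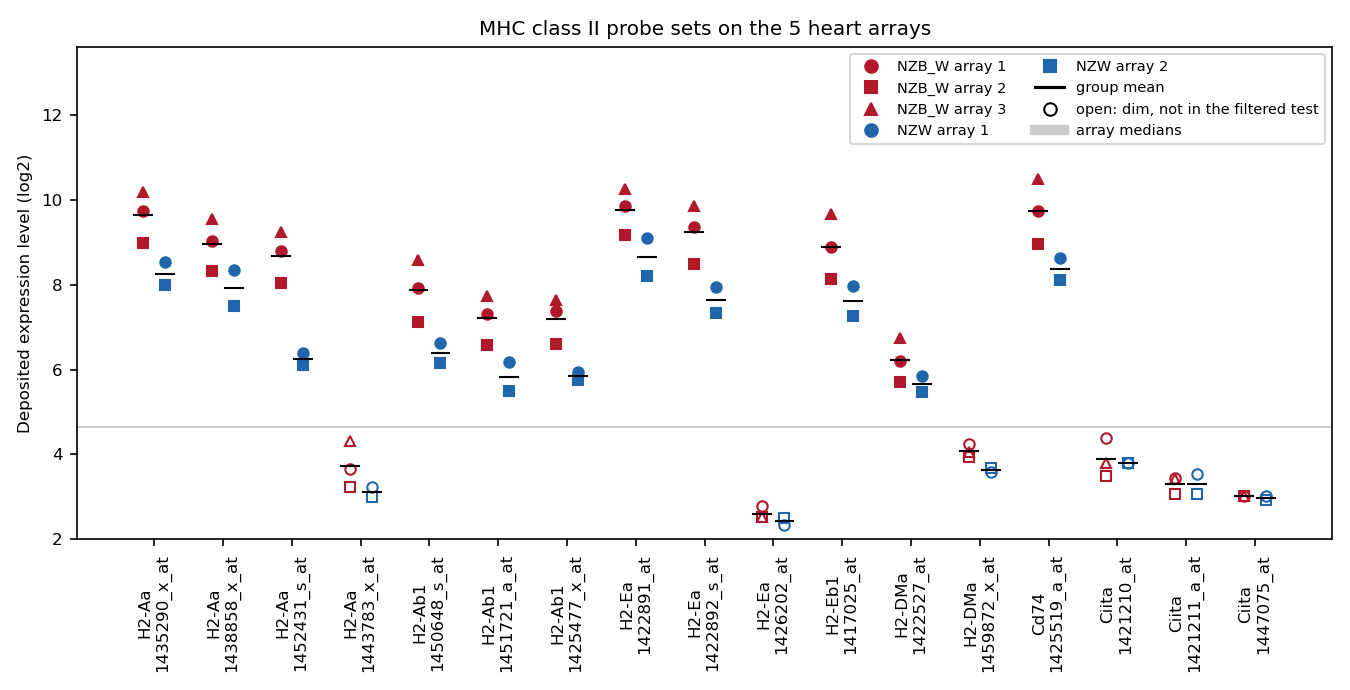
Deposited log2 level (vertical axis) of each of the 17 class II probe sets (horizontal axis) on the 3 NZB_W arrays (red, left of each pair) and the 2 NZW arrays (blue, right). Black bars are group means, open symbols are probe sets below the array median on every array, and the grey band holds the array medians; in the 11 bright probe sets NZB_W array 3 is the highest and NZW array 2 the lowest.

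The chains of I-A read higher in NZB_W hearts on every bright probe set. H2-Aa, the alpha chain, had log2 levels of 9.74, 8.98 and 10.19 in NZB_W hearts, against 8.54 and 7.98 in NZW hearts on its brightest probe set (1435290_x_at). All 3 NZB_W values lay above both NZW values, the lowest of them by 0.45. The difference was 1.38 (SE 0.41, 95% interval 0.30 to 2.45), or 2.60-fold, with a limma adjusted p of 0.867. H2-Ab1, the beta chain, had 7.92, 7.12 and 8.58 in NZB_W hearts and 6.62 and 6.15 in NZW hearts on 1450648_s_at. The groups again did not overlap, and the difference was 1.49 (SE 0.47, 95% interval 0.26 to 2.72), or 2.81-fold, with a limma adjusted p of 0.883. The 2 other H2-Ab1 probe sets, 1451721_a_at and 1425477_x_at, differed by 1.38 (SE 0.41) and 1.34 (SE 0.33), so all 3 gave sizes within 0.15 of each other.

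The chains of I-E also read higher in NZB_W hearts, and the intervals of their brightest probe sets reached below 0. H2-Eb1, the beta chain, had log2 levels of 8.88, 8.12 and 9.67 in NZB_W hearts and 7.98 and 7.27 in NZW hearts. The lowest NZB_W value exceeded the highest NZW value by 0.15, and the difference was 1.26 (SE 0.51, 95% interval -0.088 to 2.62; limma adjusted p = 0.883). H2-Ea, the alpha chain, had 9.86, 9.18 and 10.24 in NZB_W hearts and 9.10 and 8.22 in NZW hearts on 1422891_at. Its groups were separated by 0.077, and the difference was 1.10 (SE 0.42, 95% interval -0.015 to 2.22; limma adjusted p = 0.883), which was 0.66 without NZW array 2. H2-Ea was well above the array median in both groups, although RefSeq lists the gene as a transcribed pseudogene in the C57BL/6J reference, a strain known to make no I-E.

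Cd74, the invariant chain, has a single probe set and the widest NZB_W range but one. Its log2 levels were 9.73, 8.96 and 10.50 in NZB_W hearts, against 8.62 and 8.11 in NZW hearts. The groups did not overlap, and the difference was 1.36 (SE 0.49, 95% interval 0.069 to 2.65), or 2.57-fold, with a limma adjusted p of 0.883. Cd74 lies on chromosome 18, apart from the H2 genes of chromosome 17, and its difference fell between those of H2-Eb1 and H2-Aa.

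The peptide editor showed a smaller difference. H2-DMa had log2 levels of 6.21, 5.70 and 6.74 in NZB_W hearts and 5.86 and 5.48 in NZW hearts on its bright probe set (1422527_at). NZW array 1 lay above NZB_W array 2, so the groups overlapped. The difference was 0.55 (SE 0.34, 95% interval -0.34 to 1.43; limma adjusted p = 0.883), and it was 0.28 without NZB_W array 3 and 0.36 without NZW array 2. A second H2-DMa probe set (1459872_x_at) lay below the array median on all arrays and is a dim value, with means of 4.08 ± 0.149 (SD, n = 3) on the NZB_W arrays and 3.63 ± 0.0569 (SD, n = 2) on the NZW arrays. In a fit over all probe sets this dim probe set differed by 0.45 (95% interval 0.17 to 0.73), with a limma adjusted p of 0.877. Its groups did not overlap. H2-DMb1 has no probe set of its own, since its 2 probe sets are also annotated to H2-DMb2, and it is not analysed here.

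Ciita was below the array median on all 3 of its probe sets on all 5 arrays. On the brightest (1421210_at) the log2 levels were 4.38, 3.49 and 3.79 in NZB_W hearts and 3.79 and 3.79 in NZW hearts, with an identical value on 3 of the 5 arrays. The differences on the 3 probe sets, in a fit over all 45037 probe sets, were 0.094 (95% interval -0.69 to 0.88), 0.015 (-0.54 to 0.57) and 0.056 (-0.077 to 0.19), with limma adjusted p of 0.877 or more. At this brightness a difference in Ciita was not detectable, and its absence is not shown. The dim probe sets of H2-Aa (1443783_x_at) and H2-Ea (1426202_at) differed by 0.62 (95% interval -0.35 to 1.59) and 0.19 (-0.11 to 0.48) in the same fit.

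As a group, 11 of 11 bright member probe sets were higher in NZB_W hearts, against 45.6% of all probe sets tested. None of the 11 passed an adjusted p of 0.05 in limma (0.495 to 0.883), a threshold that 0.0219% of all probe sets passed upward. At an unadjusted p under 0.05 the count was 7 of 11, against 2.27% of all probe sets higher at that p. The groups did not overlap in 9 of 11, against 6.96% of all probe sets in that direction, and 10 of 11 had a difference above 1, against 0.601%. The median difference over the 6 measured genes was 1.31, against -0.014 over all 11896 genes, and all 6 had a limma adjusted p of 0.859 at gene level, where 0.00841% of genes passed upward. The members varied together across arrays, so the counts are not those of independent observations. Without NZB_W array 3 and NZW array 2 together, all 11 stayed higher, but 2 of 11 had a difference above 1 (0.373% of all probe sets) and the gene median was 0.62. An exact permutation test of a single value over 3 and 2 arrays cannot give a two-sided p below 0.2.

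**Figure D2:**
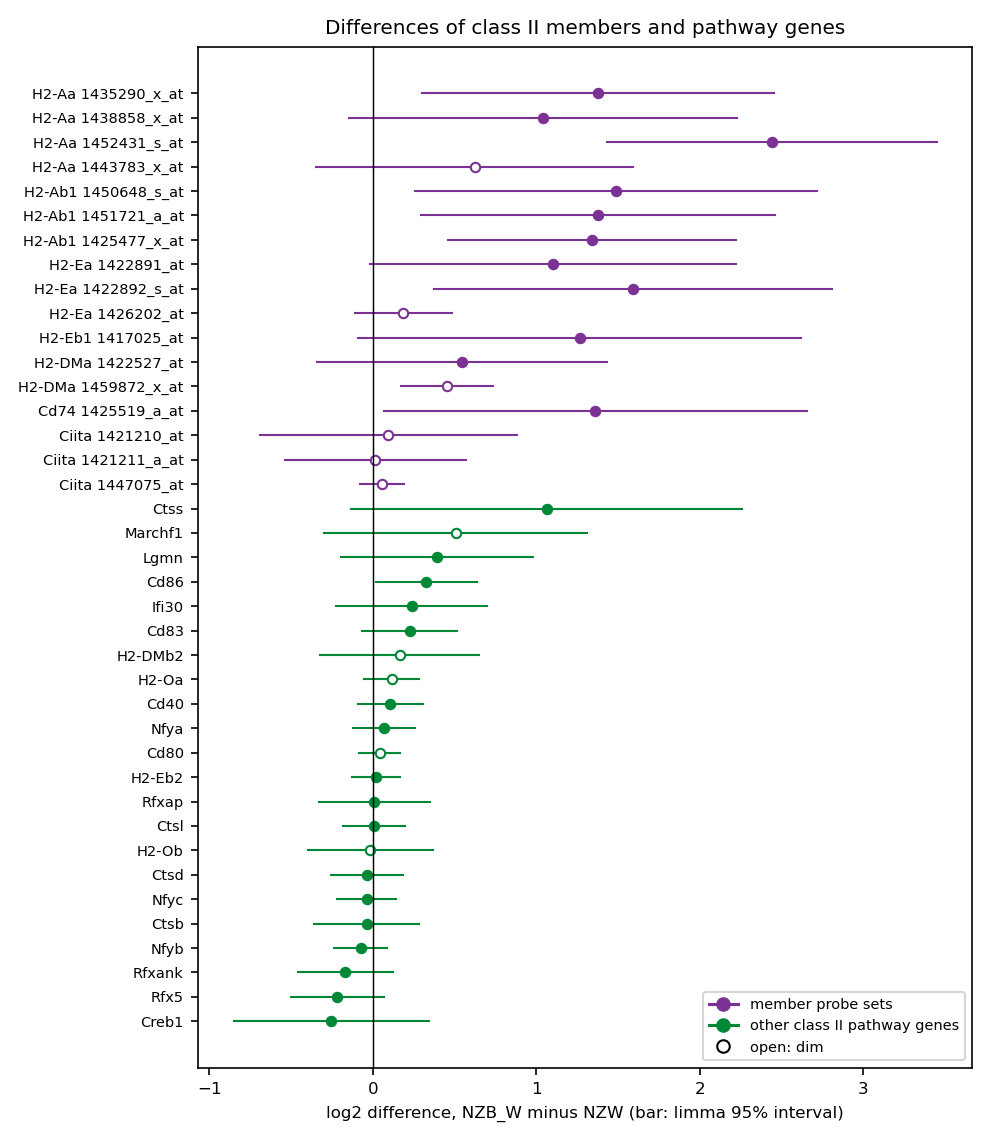
Log2 difference, NZB_W minus NZW (horizontal axis), with limma 95% intervals, of the 17 member probe sets (purple) and of 22 other genes of the class II pathway by their brightest probe set (green); open circles are dim. The bright members lie between 0.55 and 2.44, and among the pathway genes Ctss stands at 1.06.

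Probe sets of the same gene did not all show the same size of difference. On H2-Aa, 1452431_s_at read 8.79, 8.03 and 9.24 in NZB_W hearts, against 6.39 and 6.10 in NZW hearts. This was the largest member difference, 2.44 (SE 0.38, 95% interval 1.43 to 3.45; limma adjusted p = 0.495), and the groups were 1.64 apart. A further H2-Aa probe set, 1438858_x_at, differed by 1.04 (SE 0.45, 95% interval -0.15 to 2.22), overlapped between the groups and differed by 0.62 without NZW array 2. The difference on 1452431_s_at exceeded that on 1435290_x_at by 1.06. The offset between these 2 probe sets within an array was -0.95, -0.96 and -0.96 in NZB_W hearts and -2.15 and -1.89 in NZW hearts, so it was nearly constant among the NZB_W arrays (SD 0.00236) while class II levels on the same arrays ranged over 1.21. The exact permutation p of this offset was 0.2, the smallest the design allows, and 7 such pairs were compared.

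H2-Ea showed the same kind of disagreement at a smaller size. Its 1422892_s_at differed by 1.59 (SE 0.46, 95% interval 0.38 to 2.81) and 1422891_at by 1.10, an excess of 0.49 with offsets that did not overlap between the groups (exact permutation p = 0.2). In H2-Ab1 the 3 pairs of probe sets differed by -0.15 to -0.036, with overlapping offsets and an exact permutation p of 0.6 or 1. Probe sets ending in _s_at or _x_at can bind related transcripts or share probes among family members, and the H2 genes are polymorphic between strains. Whether either bears on the H2-Aa and H2-Ea sizes was not tested. The 3 bright H2-Aa probe sets thus gave differences from 1.04 to 2.44 on the same arrays.

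The class II genes varied together among arrays of the same group. All 11 bright member probe sets ordered the NZB_W arrays as 3 above 1 above 2, an order that 9.10% of all probe sets showed, and all 11 put NZW array 1 above NZW array 2, as 44.3% of all did. The full order, NZB_W arrays 3, 1 and 2 followed by NZW arrays 1 and 2, held in 9 of 11 and in 1.04% of all probe sets. The 2 exceptions were 1438858_x_at of H2-Aa and 1422527_at of H2-DMa, where NZW array 1 lay above NZB_W array 2. The spread within NZB_W was large: the highest and lowest NZB_W arrays were 1.04 to 1.54 apart, with a median of 1.21, against a median of 0.249 over all probe sets. In 4 of 11 member probe sets this range was at least as large as the difference between the groups.

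Relative to each gene's own mean over the 5 arrays, the median class II profile of the NZB_W hearts was 0.54, -0.19 and 1.19 in replicate order, and that of the NZW hearts was -0.48 and -1.10. Cd74 and H2-Eb1 followed it most closely, with a root mean square distance of 0.068 and 0.0637 log2 units over the 5 arrays. H2-Aa, H2-Ab1 and H2-Ea were 0.0802, 0.104 and 0.169 away. H2-DMa, whose deviations were smaller, was 0.397 away. Each member helps to set this median, so each was also compared with the median of the other 5 members. By that measure H2-Eb1, Cd74, H2-Aa and H2-Ab1 lay 0.115, 0.121, 0.126 and 0.153 from the rest, with 0 genes outside the group closer. H2-Ea lay 0.221 away with 6 outside genes closer, and H2-DMa 0.434 away with 69 closer. Correlations are not given, since 5 arrays are too few for them.

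**Figure D3:**
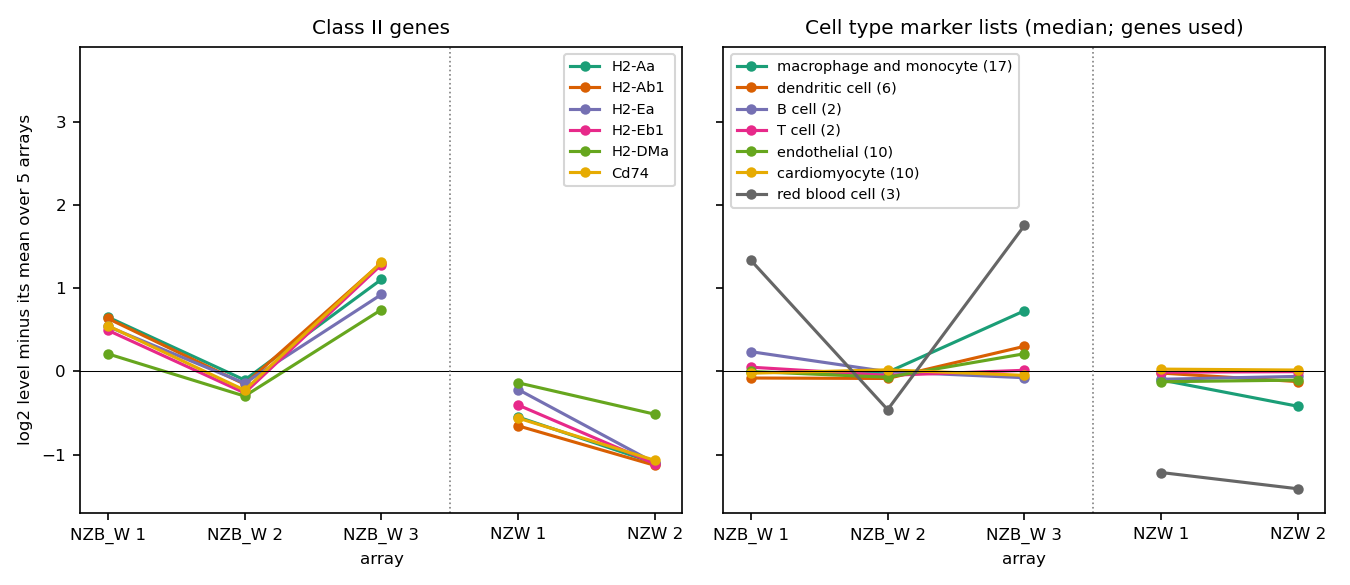
Log2 level minus its mean over the 5 arrays (vertical axis) on each array (horizontal axis), for the 6 measured class II genes (left) and as the median of each cell type marker list (right, with the number of genes used). Lines only join the points of 1 gene or list. The class II genes share 1 pattern, with NZB_W array 3 highest and NZW array 2 lowest. The macrophage, dendritic cell and red blood cell lists have the same highest and lowest arrays. On NZB_W arrays 1 and 2 the macrophage median is nearly equal (-0.0139 and -0.0111). The dendritic cell median on these arrays (-0.0801 and -0.0857) lies below that on NZW array 1 (-0.0205).

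The 8 genes outside the group with the nearest profiles were Ctss, Trim10, Ly86, Lcp1, Isg20, Fcgr4, C1qb and Cybb, at distances of 0.172 to 0.243 log2 units over the 5 arrays, against a median of 0.812 over all genes. Ctss, the protease that trims the invariant chain, was the nearest. Its log2 levels were 10.00, 9.56 and 10.97 in NZB_W hearts and 9.35 and 8.87 in NZW hearts, a difference of 1.06 (SE 0.46; limma adjusted p = 0.859). Ly86 (MD-1, a partner of the B cell and myeloid receptor RP105) differed by 1.38, Lcp1 (the leukocyte actin-bundling protein L-plastin) by 1.14 and Cybb (the catalytic subunit of the phagocyte NADPH oxidase) by 1.34. C1qb, a chain of complement C1q made by macrophages, differed by 1.01, and Fcgr4, an activating receptor for immunoglobulin G, by 1.58. Trim10, an erythroid RING finger protein, differed by 1.02 and exceeded the array median on 2 arrays, both NZB_W, and Isg20, an interferon-induced exonuclease, by 1.37. Without NZB_W array 3 the differences of Ctss, Trim10, Lcp1 and Cybb were 0.67, 0.65, 0.72 and 0.86. Those of Ly86, Isg20, Fcgr4 and C1qb were 0.99, 1.12, 1.28 and 0.75. A profile chosen for its likeness also shares the direction between groups, so these differences are a description.

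Most other genes of the class II pathway differed little between the groups. Of 22 other pathway genes, 17 were above the dim range, of which 10 were higher and 7 lower, with a median difference of 0.01 against -0.014 over all genes. None passed the limma threshold in either direction, where 0.00841% of genes passed upward and 0% downward, and 1 had an unadjusted p under 0.05, against 2.50% of all genes higher and 3.03% lower at that p. That gene was Cd86, a costimulatory ligand for T cells, with log2 levels of 5.48, 5.48 and 5.74 in NZB_W hearts and 5.15 and 5.33 in NZW hearts, a difference of 0.33 (SE 0.12; limma adjusted p = 0.859). Among the other genes with the smallest p, Cd83, which stabilizes surface class II, differed by 0.23 (SE 0.11), and Rfx5, the DNA-binding subunit of the RFX complex, by -0.22 (SE 0.11).

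The DNA-binding factors of class II promoters were bright in both groups with small differences. The RFX subunits Rfxap and Rfxank differed by 0.01 (SE 0.13) and -0.17 (SE 0.11), Creb1 by -0.25 (SE 0.23), and the NF-Y subunits Nfya, Nfyb and Nfyc by 0.068, -0.075 and -0.038. Among the lysosomal enzymes that process antigen, Ctsl, Ctsb and Ctsd differed by 0.0064, -0.038 and -0.036. Lgmn (legumain) differed by 0.39 (SE 0.22) and the thiol reductase Ifi30 by 0.24 (SE 0.18), against 1.06 for Ctss. Without NZB_W array 3, Ctss was 0.67. Without NZB_W array 3 and NZW array 2 together, Lgmn was 0.0061, Ifi30 0.044 and Ctss 0.43. Marchf1, the ubiquitin ligase that removes class II from the surface, exceeded the array median on 1 array and differed by 0.51 (SE 0.30) in a fit over all genes. These names beyond the 4 smallest p were added after their values were seen.

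Of 10 genes that lead from interferon gamma to Ciita, 9 had a probe set of their own and 7 of these were above the dim range, of which 4 were higher and 3 lower, with a median difference of 0.033. None passed the limma threshold, and none had an unadjusted p under 0.05. Ifng itself lay below the array median on all 5 arrays. Jak1, the kinase of the receptor, differed by -0.22 (SE 0.14), Usf1, which acts at a Ciita promoter, by 0.15 (SE 0.093), and the receptor chains Ifngr1 and Ifngr2 by 0.033 (SE 0.054) and 0.092 (SE 0.22). Irf1, an interferon-induced transcription factor outside the 4 smallest p of this list, differed by -0.017 (SE 0.16).

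The classical chains lie in a run of 15 genes on chromosome 17 from H2-Oa to H2-Ea, in the order given by RefSeq for GRCm38.p6. Only protein-coding genes and transcribed pseudogenes were counted, and entries of other types were left out. Of the 15, 11 were above the dim range. In this run H2-Ab1, H2-Aa and H2-Eb1 are neighbours, followed by H2-Eb2 and H2-Ea. H2-Eb2 had log2 levels of 5.49, 5.46 and 5.45 in NZB_W hearts and 5.43 and 5.46 in NZW hearts, a difference of 0.02 with a 95% interval of -0.13 to 0.17, and it lies between 2 genes with differences above 1. The class I antigen-processing genes in the middle of the run also had positive differences: Psmb9 0.69 (SE 0.35), Tap1 0.73 (SE 0.36), Psmb8 0.72 (SE 0.24) and Tap2 0.44 (SE 0.16), each with a limma adjusted p of 0.859. The groups overlapped in Tap1, where NZB_W array 2 read 5.20 and NZW array 2 read 5.28. Without NZB_W array 3, Psmb9 was 0.36, Tap1 0.48 and Tap2 0.29, and without NZW array 1, Tap1 was 0.36. Brd2, a bromodomain protein gene beside H2-DMa, differed by -0.18 (SE 0.24). H2-Oa, H2-Ob and H2-DMb2 were below the array median on all 5 arrays.

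**Figure D4:**
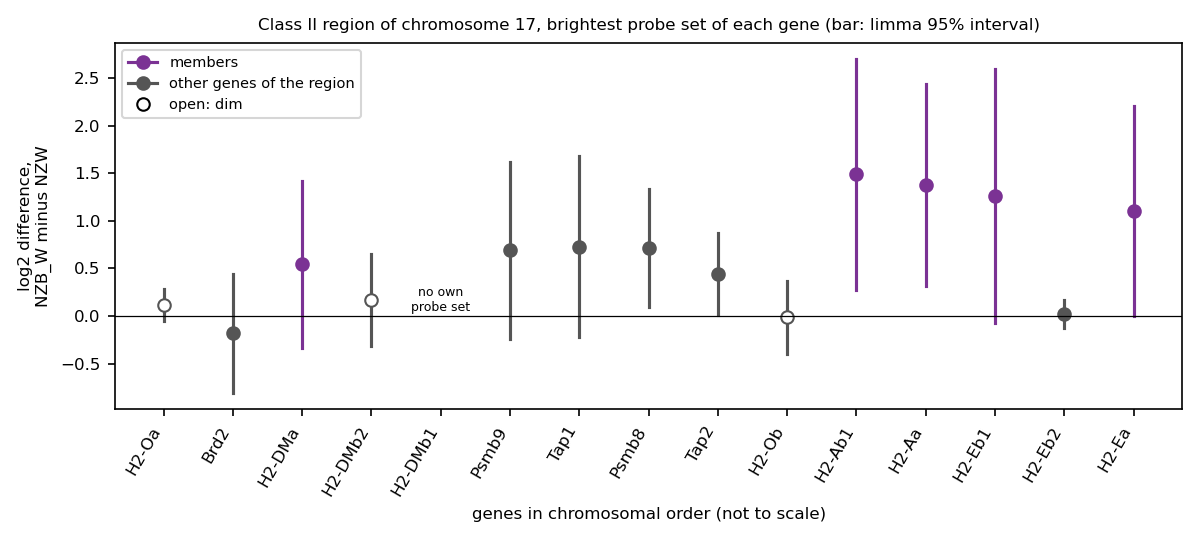
Log2 difference, NZB_W minus NZW (vertical axis), with limma 95% intervals, of the 15 genes from H2-Oa to H2-Ea in chromosomal order (horizontal axis, not to scale). Members are purple, other genes grey and dim genes open; H2-Ab1, H2-Aa, H2-Eb1 and H2-Ea lie above 1, and H2-Eb2 between them lies at 0.02.

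Markers of the cells that carry class II were measured on the same arrays; in whole-heart RNA, fewer cells of a type and less RNA per cell cannot be told apart. The macrophage and monocyte list had 17 measured markers, 16 of them higher in NZB_W (45.5% of all genes were), with a median difference of 0.55 against -0.014 over all genes. Their levels were summed on the linear scale over the 19 markers on the array. The sums ranged from 5722 to 9644 in NZB_W hearts and from 3964 to 5467 in NZW hearts. NZB_W array 3 was highest and NZW array 2 lowest, as for class II. Between these extremes the median of the list parted from class II. The centred median of the markers was -0.014 and -0.011 on NZB_W arrays 1 and 2, against 0.54 and -0.19 for class II. The NZB_W order of 3 above 1 above 2 held in 7 of the 17 markers, against 9.10% of all probe sets. It held in all 11 bright class II probe sets, which belong to 6 genes. The groups did not overlap, with NZB_W higher, in 9 of the 17 markers, against 6.96% of all probe sets. C1qb had an unadjusted p of 0.0234, and Itgam (CD11b) differed by 1.35 (SE 0.20; limma adjusted p = 0.489) but passed the filter only through its NZB_W arrays. Without NZB_W array 3 and NZW array 2 together, 11 of the 17 were higher (45.4% of all genes were), with a median of 0.077. The class II median in the same arrays was 0.62. Single markers then ranged from -0.85 (Lyve1) to 1.24 (Itgam), with Fcgr1 at 0.81, Ms4a7 at 0.80 and C1qb at 0.57. The part of macrophage RNA in the class II result was not tested.

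Markers of other antigen-presenting and immune cells were mostly dim. Of 9 B cell markers on the array, 6 lay below the array median on all arrays, including Ms4a1 (CD20) and Cd79a, and the summed level of the 9 ranged from 150 to 185 in NZB_W hearts and from 150 to 157 in NZW hearts. Cd22 differed by 0.27 (SE 0.16) and Pax5 by -0.0069 (SE 0.082). Of 10 dendritic cell markers, 6 were above the dim range, 4 of them higher, with a median of 0.042 and summed levels of 327 to 407 in NZB_W hearts and 353 to 360 in NZW hearts. The chemokine receptors Xcr1 and Ccr7 and the lectin Cd209a lay below the array median on all arrays. Itgax (CD11c) differed by 0.63 (SE 0.27), exceeding the array median on 2 arrays, both NZB_W, and Zbtb46, a dendritic cell transcription factor, by -0.28 (SE 0.18). Of 8 T cell markers 5 were below the median on all arrays, and Cd4 and Cd3e differed by 0.036 (SE 0.059) and -0.012 (SE 0.082).

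Endothelial markers, which mark cells that can also be induced to carry class II, were higher in 8 of 10, with a median of 0.11 and summed levels of 3778 to 4649 in NZB_W hearts and 3759 to 3818 in NZW hearts. Esam and Cldn5, both junction proteins, differed by 0.28 (SE 0.094) and 0.58 (SE 0.28). The 10 cardiomyocyte markers had a median of -0.037, with Myh6 and Atp2a2 at -0.11 (SE 0.061) and -0.073 (SE 0.063). Of 3 measured red blood cell markers, Alas2 and Slc4a1 were higher, by 2.19 (SE 0.71) and 2.71 (SE 1.07), and Ank1, a membrane skeleton protein, differed by -0.23 (SE 0.21), each with a limma adjusted p of 0.859 or more. With 3 markers, the list's median was the value of Alas2 itself, 2.19. Without NZB_W array 3 and NZW array 2 together, Alas2 was 1.65. The 2 other red blood cell markers on the array, Hba-a1 and Epb42, lay below the array median on all arrays. They differed by 0.16 and 0.025 in a fit over all genes. Alas2, the erythroid enzyme of heme synthesis, had log2 levels of 9.70, 7.90 and 10.11 in NZB_W hearts and 7.14 and 6.95 in NZW hearts, the same order of arrays as class II. Slc4a1, the red cell anion exchanger, had 7.28, 4.87 and 8.33 in NZB_W hearts and 4.30 and 3.93 in NZW hearts, again in that order, but it exceeded the array median only on the 3 NZB_W arrays and so was measured only through them. Of 6 neutrophil markers 3 were measured, with Csf3r at 0.12 (SE 0.12) and S100a8 at -0.54 (SE 0.69). The part of residual blood in the class II result was not tested.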

How the data were processed

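The authors deposited log2 expression values, 1 per probe set and array. RMA, GCRMA and Partek stand in the submitters' processing notes with no role or version, so it is unknown which of RMA and GCRMA made the values; the methods treat dim signal differently, which affects dim probe sets most. All 5 columns match a sample. Groups come from the titles. The platform annotation, updated through Entrez identifiers to RefSeq GRCm38.p6 names, gave 34945 probe sets with 1 symbol, 932 with several and 9160 with none; the build behind it is not given, so probe sets have no coordinates here.

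Probe sets above the array median on at least 2 arrays were tested two-sided and without covariates by lmFit and eBayes (limma version 3.58.1; R version 4.3.3), adjusting by Benjamini-Hochberg over every probe set or gene tested, at a threshold of 0.05 and with 95% intervals. A gene was represented by its brightest probe set. SD is over arrays, SE is limma's. Members outside the filter were fitted with all probe sets. Scripts were tested on simulated data. The members, the lists and the rule for named genes (all members, up to 4 genes per pathway list or 2 per marker list with the smallest p, 8 nearest profiles) were chosen with earlier results of these data known, and so were the promoter search and the genes of the chromosome 17 run. Irf1 and Ank1 were named beyond the 4 or 2 smallest p of their lists. Figures used matplotlib 3.10.9.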

Additional observations from a re-analysis of the deposited data

How the results depend on the processing

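Over 15 alternative settings, 152 recomputed member differences were all above 0 and none passed an adjusted p of 0.05, the lowest being 0.265 with median centring; 0 to 16 of all probe sets passed in these settings. The median over the measured genes was 1.33 with quantile normalization, 1.30 with median centring, 0.81 with array weights and 0.93 to 1.68 with any 1 array left out; where NZW had a single array left, it was assumed to vary like NZB_W. It was 0.62 when NZB_W array 3 and NZW array 2 were both left out, and H2-DMa was then 0.095; that this pair stands apart was known from earlier results, and the cause was not tested. The replicate block gave a median of 0.93 and no call. Only NZB_W has a replicate 3, so the block removes that array from the contrast. Its differences equal those without NZB_W array 3, so within the 152 they are not separate results. Replicate numbers pair nothing known: deviations correlated at -0.26 and 0.10 over genes for numbers 1 and 2. Groups did not overlap in 9 to 11 of 11 member probe sets, against 6.89% to 24.1% of all probe sets (21.3% without NZW array 1, 17.1% without NZW array 2 and 24.1% without both arrays that stood apart), and in 11 of 17 with no filter, against 5.76%. Array weights lowered H2-DMa to 0.20, H2-Aa on 1438858_x_at to 0.62, H2-Ea on 1422891_at to 0.72, H2-Eb1 to 0.75 and Cd74 to 0.85. Without suffixed probe sets 3 genes remained, with a median of 1.10. Counts without the 2 arrays that stood apart, values of genes outside the group with an array left out, and distances to the other members were added after the data were seen. Without those 2 arrays, dendritic cell markers higher were 2 of 6, cardiomyocyte markers 5 of 10, and B and T cell markers 2 of 2 each. Ciita, below the array median on all arrays, has dim values only.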
